A study of Mus musculus with 12 samples.

Results

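The nuclear genes for the subunits of oxidative phosphorylation were followed in poly-A RNA-seq of mouse lung. Members were the rows of the expression table with a symbol of the Nduf series (a, b, c, s or v with a number), the Uqcr series, Sdha to Sdhd, the Cox series from Cox4 to Cox8 with a letter a to c, the Atp5 series, or Cycs. Names ending in -ps were left out, and a member had to reach 1 CPM (reads scaled by the authors to library size) in at least 3 libraries. The rule found 81 genes among 49585 in the table and among the 16126 that passed the same level filter. Of 89 rows with a matching name, 7 were below the level and 1 ended in -ps. By level, the members just inside were Atp5s, with 5.13 CPM in the library ranked 3, and Cox6b2 with 9.15 CPM. The nearest row outside on level was the pseudogene Atp5l-ps1 with 0.463 CPM, and Cox8c and Cox7b2, isoforms known from testis, were under the level as well.

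The mice were Rgs4 knockouts (KO) or wild type (WT), Rgs4 being a regulator of G protein signalling, and the study concerns asthma. Balb/cJ is given as the strain. Within each genotype some mice were treated with Aspergillus fumigatus (Af), a mould, and the others with saline (PBS). Each of the 4 groups had 3 libraries, KO_Af 12 to 14, KO_PBS 9 to 11, WT_Af 18 to 20 and WT_PBS 15 to 17. The sources used here do not state the knockout allele, the mice's age or sex, or how Af was prepared, dosed and delivered.

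Oxidative phosphorylation takes place in the inner mitochondrial membrane. Complex I (NADH dehydrogenase) and complex II (succinate dehydrogenase) pass electrons to ubiquinone, complex III hands them to cytochrome c, and complex IV (cytochrome c oxidase) delivers them to oxygen. Complexes I, III and IV pump protons, and complex V (ATP synthase) uses the gradient to make ATP. Most subunits are encoded in the nucleus, and a smaller set, of complexes I, III, IV and V, in mitochondrial DNA (mtDNA). Complex II is wholly nuclear. Several complex IV subunits exist as a common form and a tissue-restricted form of heart, muscle, brown fat or other cells.

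Libraries held 20708884 to 30229446 recovered reads. The first principal component over all tested genes held 68.4% of the variance and separated Af from PBS, while the next (8.41%) set KO_Af 12 apart from the rest. Rgs4 had 0.571 to 1.47 CPM in the 6 KO libraries against 20.7 to 48.9 CPM in the 6 WT libraries. The lung markers Sftpc, Scgb1a1, Ager and Pecam1 were present in every library and summed to 13890 to 28670 CPM in KO_Af and 27810 to 30090 CPM in KO_PBS, and to 17070 to 20900 CPM in WT_Af and 25390 to 29910 CPM in WT_PBS. With Af, 28.7% of all tested genes were called higher and 29.2% lower in KO lungs, and 26.2% and 25.6% in WT lungs. Beside these shares, markers of monocytes and macrophages (5 of 6 higher in each genotype) and of cycling cells (4 of 4) were higher. Markers of endothelium (5 of 5 lower in KO, 4 of 5 in WT) and alveolar type 1 cells (5 of 5 lower in each genotype) were lower. In whole lung, fewer cells of a type and less RNA per cell cannot be told apart, and the part of these shifts in the members' changes was not tested.

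Promoters of the members were searched for the letters of 4 motifs known in respiratory chain genes, since many of the members moved together. RefSeq promoters (250 bases before to 50 after the annotated start, GRCm38.p6) were found for 69 of the 81 members, 3 of them by an older name. Those of Atp5a1, Cox6a2, Cox6c, Ndufa2, Ndufa4l2, Ndufb9, Ndufs1, Sdhc, Uqcrb, Uqcrc2 and Uqcrq are only named. The letters searched on both strands were GCGCA and GCGC with 1 base of any kind between them for NRF1 (nuclear respiratory factor 1), TNAAGGTCA for the oestrogen-related receptors (ERR), AAGATGGC for YY1 and CCGGAAG for ETS factors such as GABP. A stretch of 230 bases is shown for 6 members, from 200 bases before the start to 30 after it. Bases are in lower case and motif letters in capitals. Cox5a is shown as the member with the largest rise with Af and Sdha as one that was not called. Ndufb4, Atp5g3, Atp5k and Ndufa3 are shown as carriers of the motifs.
Cox5a: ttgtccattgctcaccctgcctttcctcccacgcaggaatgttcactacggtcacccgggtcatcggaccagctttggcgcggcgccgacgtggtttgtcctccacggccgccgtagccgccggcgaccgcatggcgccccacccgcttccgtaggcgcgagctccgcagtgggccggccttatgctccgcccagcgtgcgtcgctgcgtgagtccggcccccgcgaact
Ndufb4: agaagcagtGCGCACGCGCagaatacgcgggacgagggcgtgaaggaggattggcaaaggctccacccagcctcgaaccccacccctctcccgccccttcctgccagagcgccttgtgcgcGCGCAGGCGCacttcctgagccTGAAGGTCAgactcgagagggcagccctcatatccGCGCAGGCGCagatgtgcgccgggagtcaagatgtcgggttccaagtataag
Atp5g3: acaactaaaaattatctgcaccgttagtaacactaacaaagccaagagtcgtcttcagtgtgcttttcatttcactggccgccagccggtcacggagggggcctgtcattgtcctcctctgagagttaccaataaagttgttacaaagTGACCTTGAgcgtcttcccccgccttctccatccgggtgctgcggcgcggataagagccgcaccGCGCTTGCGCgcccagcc
Atp5k: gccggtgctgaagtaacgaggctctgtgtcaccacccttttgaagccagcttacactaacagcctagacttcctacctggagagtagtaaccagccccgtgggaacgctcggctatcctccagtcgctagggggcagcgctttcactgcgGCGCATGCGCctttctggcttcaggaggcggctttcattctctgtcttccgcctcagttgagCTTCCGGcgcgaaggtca
Ndufa3: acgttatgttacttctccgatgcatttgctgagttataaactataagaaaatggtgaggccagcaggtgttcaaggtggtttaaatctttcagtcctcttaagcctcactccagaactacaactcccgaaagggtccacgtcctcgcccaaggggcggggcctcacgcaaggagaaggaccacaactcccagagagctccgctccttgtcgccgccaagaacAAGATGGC
Sdha: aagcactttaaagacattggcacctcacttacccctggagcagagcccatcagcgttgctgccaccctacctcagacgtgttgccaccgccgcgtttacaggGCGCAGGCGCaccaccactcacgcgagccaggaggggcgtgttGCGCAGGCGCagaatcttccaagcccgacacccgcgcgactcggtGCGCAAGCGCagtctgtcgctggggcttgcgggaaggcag
These stretches lie at chr9:57521032-57521261 (plus strand), chr16:37654339-37654568 (minus strand), chr2:73911297-73911526 (minus strand), chr5:108434370-108434599 (minus strand), chr7:3617173-3617402 (plus strand) and chr13:74350211-74350440 (minus strand), in the order shown.

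The NRF1 letters were in 16 of the 69 member promoters (23.2%), against 4.78% of all 27025 promoters and 9.47% of the 11485 promoters of tested genes. Ndufb4 and Sdha each had them at 3 places. The YY1 letters were in 10 member promoters (14.5%), against 2.88% of all promoters and 4.23% of those of tested genes. Of these 10 YY1 matches, 9 lay after the start and on the strand of the gene, as in Ndufa3. The ETS letters were in 15 member promoters (21.7%), against 9.12% of all and 16.4% of tested genes. The ERR letters were in 3 (4.35%), those of Ndufb4, Atp5g3 and Sdhd, against 1.26% of all and 0.749% of tested genes. None of the 4 motifs was in 33 of the 69 windows, Cox5a among them. For each motif the median change with Af was higher in members with the letters than in those without, and the differences were not tested. The share called higher was larger with the letters for YY1, ETS and ERR but smaller for NRF1. In KO lungs 11 of 16 members with NRF1 letters rose and 38 of 53 without, beside 28.7% of all tested genes. In WT lungs 7 of 16 and 26 of 53 rose, beside 26.2%. The median log2 change in KO lungs was 0.61 for the 16 members with NRF1 letters and 0.59 for the 53 without, and 0.67 for the 10 with YY1 letters against 0.59 for the 59 without. In WT lungs the medians were 0.49 and 0.44 for NRF1, and 0.55 and 0.44 for YY1. For the 15 members with ETS letters and the 54 without, the medians were 0.61 and 0.58 in KO lungs and 0.56 and 0.41 in WT lungs. For the 3 with ERR letters and the 66 without, they were 0.71 and 0.60 in KO lungs and 0.61 and 0.44 in WT lungs. A match is a run of letters, not a shown binding site.

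On a per-length scale, in CPM per kb of annotated transcript averaged over the 12 libraries, ATP synthase genes stood highest. Atp5b, the catalytic beta subunit, had 392 CPM per kb, followed by Atp5g2 with 274.5, Atp5a1 with 251 and the complex IV gene Cox6a1 with 244. The lowest subunit genes were Ndufc1 with 12.0 CPM per kb and the tissue-restricted Cox8b with 17.6 and Cox7a1 with 17.7. Atp5sl (8.77) and Atp5s (3.10), which match the name rule but encode factors and not ATP synthase subunits, were lower still.

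With Af more members rose than fell in each genotype. In KO lungs 53 of 81 members rose and 3 fell (limma, Benjamini-Hochberg adjusted p under 0.05), beside 28.7% of all tested genes higher and 29.2% lower. In WT lungs 38 rose and 1 fell, beside 26.2% of all tested genes higher and 25.6% lower. The median log2 change of the members was 0.58 in KO and 0.44 in WT lungs, against -0.02 over all tested genes in each. With an adjustment for transcript length, given below, the share of risen members was only slightly above that of all tested genes. Of the members that rose, 36 rose in both genotypes, which is 67.9% of the KO list and 94.7% of the WT list. The same overlap over all tested genes is not given here, so these shares are not read as particular to the members. Atp5a1 and Uqcrc1 passed in WT lungs and not in KO lungs, and no member passed a test of the difference between the genotypes' responses, beside 0.0062% of all tested genes with a larger and 0.0% with a smaller response in KO lungs. All Af libraries lay above all PBS libraries for 41 members in KO lungs and 67 in WT lungs, beside 31.1% and 32.7% of all tested genes. No member that is a common subunit fell: the 4 calls downward were Ndufa4l2 in both genotypes and Atp5s and Atp5sl in KO lungs.

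**Figure D1:**
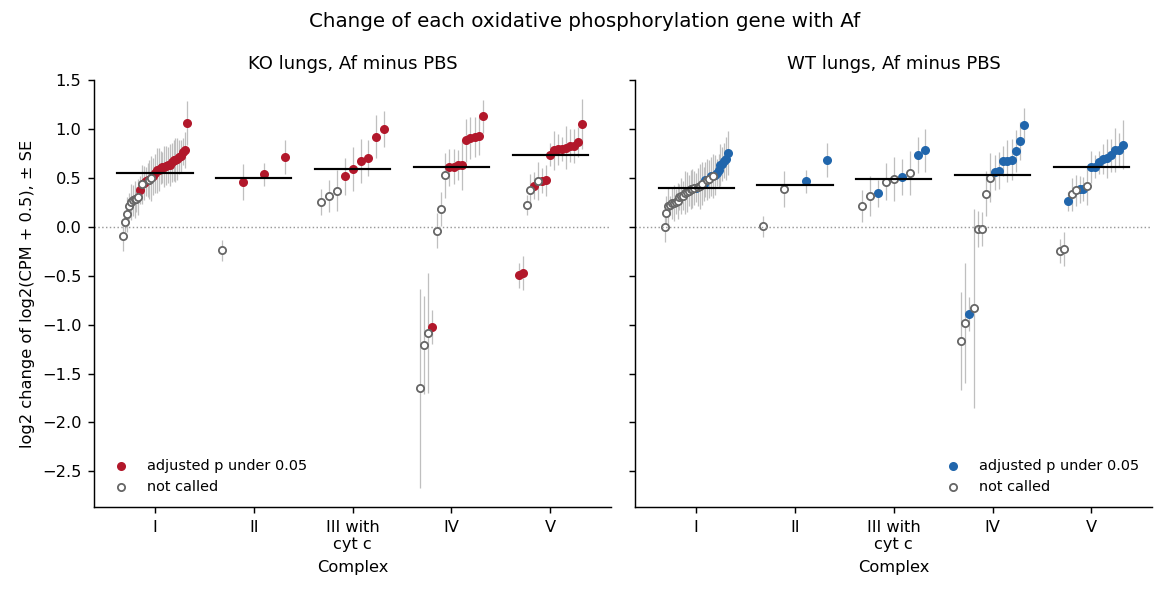
The log2 change with Af (vertical axis, log2(CPM + 0.5), bars ± SE, 3 libraries a group) is plotted for each member by complex, sorted from low to high within a complex, in KO lungs (left) and WT lungs (right). Filled points passed adjusted p under 0.05 and black lines are medians. Medians lie between 0.50 and 0.74 in KO lungs and between 0.40 and 0.61 in WT lungs, and the points far below 0 are tissue-restricted complex IV genes.

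Single libraries carried part of this. KO_Af 12 was the highest of all 12 libraries for 71 of the 81 members. The mean deviation of the members from their own 12-library means was 0.80 on the log2 scale in KO_Af 12, against -0.03 and 0.13 in KO_Af 13 and 14. KO_PBS 11 was the highest KO_PBS library for 79 members, with a mean deviation of 0.09, against -0.23 and -0.31 in KO_PBS 9 and 10. The WT libraries stood closer together, at 0.20, 0.21 and -0.06 in WT_Af and -0.35, -0.28 and -0.18 in WT_PBS. Together the members took 1.06%, 0.715% and 0.754% of the library in KO_Af, against 0.577%, 0.550% and 0.709% in KO_PBS. In WT_Af they took 0.789%, 0.789% and 0.689%, against 0.519%, 0.554% and 0.591% in WT_PBS. Neither genotype's ranges overlapped between Af and PBS. KO_Af 12 also had the most of the skeletal muscle markers (400.3 CPM summed, against 6.02 and 13.4 CPM in the other KO_Af libraries and 343.8 CPM in WT_PBS 17). It had the most of the red blood cell markers as well (8544 CPM, against 3390 and 5091 CPM). The 4 brown fat markers summed to 82.9 CPM in KO_Af 12, against 20.4 and 24.5 CPM in KO_Af 13 and 14. In KO_PBS 11 they summed to 136.9 CPM, against 8.07 and 5.54 CPM in KO_PBS 9 and 10. They were 11.3, 69.0 and 14.3 CPM in WT_Af 18 to 20 and 5.42, 21.5 and 26.9 CPM in WT_PBS 15 to 17. The part of these tissues in the members' high values was not tested. Without KO_Af 12, 35 members rose and 6 fell in KO lungs, with a median log2 change of 0.30, beside 29.4% of all tested genes in each direction. The same fit, whose spread is shared by the 4 groups, gave 63 risen and 2 fallen members in WT lungs, where the changes themselves stayed as they were, beside 30.4% of all tested genes higher and 30.2% lower. Without KO_PBS 9 or KO_PBS 10 the KO counts were 33 risen and 2 fallen and 32 risen and 4 fallen. In WT lungs 24, 23, 23 and 25 members rose without WT_Af 18, WT_Af 19, WT_PBS 15 and WT_PBS 16. Each median kept its sign. In every alternative run, the 12 fits with a library left out included, 24 members were called higher in KO lungs, 20 in WT lungs and 18 in both.

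**Figure D2:**
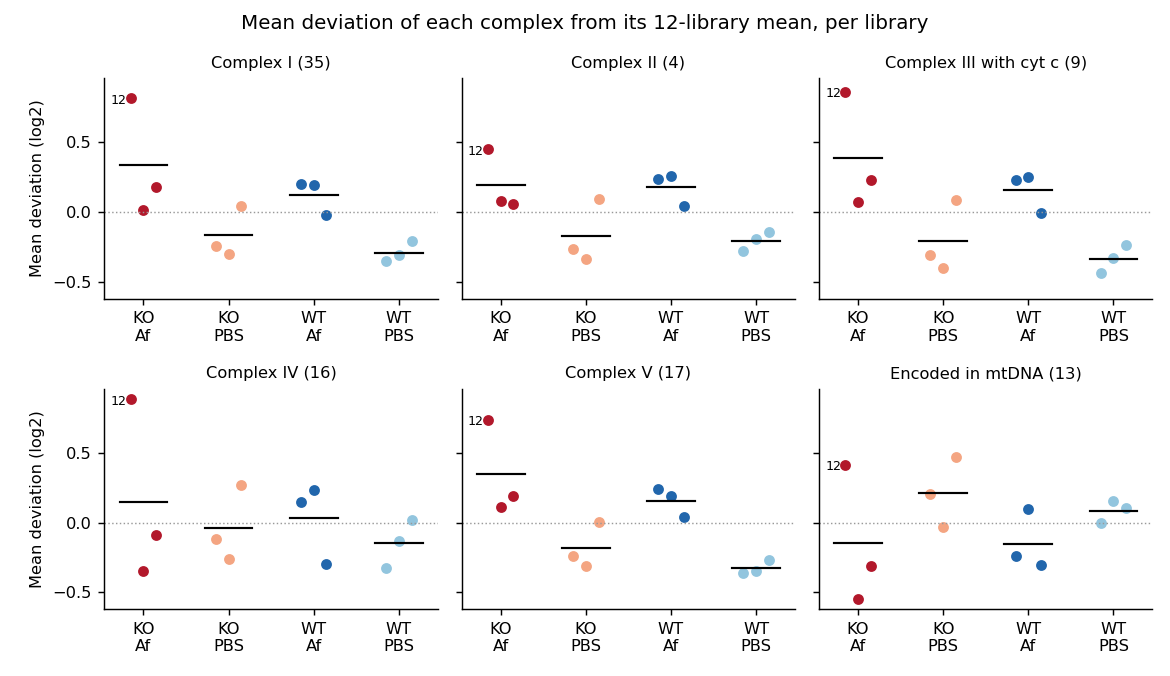
Each point is 1 library's mean deviation from the 12-library mean of log2(CPM + 0.5), averaged over the genes of a complex (number in brackets) or over the subunits encoded in mtDNA, with black lines for the group means. KO_Af 12, marked 12, lies above the other libraries in complexes I to V, and in the mtDNA panel both Af group means lie below the PBS means.

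Complex I had 35 members, of which 23 rose in KO lungs and 12 in WT lungs, beside 28.7% and 26.2% of all tested genes. In WT lungs this share lay below the 42.2% of other genes with short transcripts (up to 1500 nt) that rose. The largest change was that of Ndufb6, an accessory subunit of the membrane arm. Ndufb6 had 57.1, 26.0 and 34.2 CPM in KO_Af, against 16.0, 15.6 and 21.3 CPM in KO_PBS. It had 28.5, 29.8 and 25.5 CPM in WT_Af, against 15.7, 15.9 and 17.2 CPM in WT_PBS. The groups did not overlap in either genotype, and the change was 2.09-fold in KO lungs (log2 1.06 ± 0.22 SE, adjusted p = 0.00175) and 1.69-fold in WT lungs (adjusted p = 0.0143). Ndufb6 overlaps Toporsos on the opposite strand, so its reads are uncertain if strand was not used in counting. Among the 28 accessory subunits 20 rose in KO and 10 in WT lungs, with median log2 changes of 0.58 and 0.41. Of the 7 core subunits, the conserved catalytic set, 3 rose in KO lungs (Ndufv2, Ndufs8 and Ndufs3) and 2 in WT lungs (Ndufv2 and Ndufs3), with medians of 0.31 and 0.26. Ndufs3 lost its call in each genotype when single libraries were left out (adjusted p up to 0.146 without KO_PBS 10 and 0.134 without WT_PBS 15). Ndufa12, an accessory subunit beside the NADH-oxidising module, had 84.0, 52.8 and 61.5 CPM in KO_Af, against 40.5, 36.1 and 37.0 CPM in KO_PBS, and 56.1, 63.1 and 54.3 CPM in WT_Af, against 36.6, 40.1 and 40.6 CPM in WT_PBS. The groups were apart, with log2 changes of 0.77 and 0.56 (adjusted p = 6.49e-04 and 0.00605). Ndufs4, needed for a stable NADH-oxidising module, rose by 0.69 and 0.70 (adjusted p = 0.0191 and 0.0197, and 0.0611 without KO_PBS 10 and 0.0635 without WT_Af 19). The smallest called rises in KO lungs were those of Ndufa13 (log2 0.38, adjusted p = 0.0417, and 0.142 without KO_Af 12), Ndufs3 (0.45) and Ndufa9 (0.47, adjusted p = 0.0198, and 0.0863 without KO_PBS 10). In WT lungs Ndufa9 rose by 0.40 (adjusted p = 0.0419, and 0.116 without WT_PBS 15) and Ndufb7 by 0.48 (adjusted p = 0.0389, and 0.0994 without WT_PBS 15). Ndufv2, an iron-sulphur subunit of the NADH-oxidising module, had 131, 75.2 and 79.7 CPM in KO_Af and 51.3, 46.6 and 63.2 CPM in KO_PBS. In WT_Af it had 79.4, 81.8 and 74.3 CPM, against 43.4, 53.0 and 50.4 CPM in WT_PBS, with log2 changes of 0.79 and 0.68 in KO and WT lungs. Its partner Ndufv1, which binds NADH, was not called. Ndufv1 had 91.5, 73.6 and 75.0 CPM in KO_Af and 77.7, 73.2 and 108 CPM in KO_PBS, which overlap, and its log2 change was -0.09 in KO lungs (adjusted p = 0.608) and 0.00 in WT lungs (adjusted p = 0.996). The iron-sulphur subunit Ndufs1 had log2 changes of 0.05 and 0.22 (adjusted p = 0.693 and 0.0736). Whether core and accessory subunits differed in response was not tested.

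Complex II gave an uneven picture. Its membrane anchors Sdhc and Sdhd rose in both genotypes, the iron-sulphur subunit Sdhb in KO lungs, and the flavoprotein Sdha, the catalytic subunit, in neither. Sdhd had 166, 102 and 106 CPM in KO_Af, against 68.8, 65.2 and 90.5 CPM in KO_PBS, and 117, 109 and 94.2 CPM in WT_Af, against 66.6, 65.0 and 66.5 CPM in WT_PBS. Neither pair of groups overlapped, and the log2 changes were 0.71 ± 0.17 SE in KO lungs (adjusted p = 0.00448) and 0.68 ± 0.17 SE in WT lungs (adjusted p = 0.00673). Sdhc had log2 changes of 0.54 and 0.47 in KO and WT lungs (adjusted p = 0.00244 and 0.00676). Sdhb changed by 0.46 in KO lungs (adjusted p = 0.0489), a call kept in 3 of the 12 fits with a library left out (adjusted p = 0.184 without KO_Af 12), and by 0.39 in WT lungs (adjusted p = 0.0947). Sdha had 180, 206 and 189 CPM in KO_Af, against 219, 204 and 260 CPM in KO_PBS, and 204, 234 and 195 CPM in WT_Af, against 192, 214 and 223 CPM in WT_PBS. Its ranges overlapped, with log2 changes of -0.24 ± 0.11 SE (adjusted p = 0.0756) and 0.01 ± 0.11 SE (adjusted p = 0.968). With array weights, which count libraries unequally, Sdha was called lower in KO lungs (log2 -0.21, adjusted p = 0.0404). Sdha was the complex II gene with 3 matches to the NRF1 letters, shown above.

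**Figure D3:**
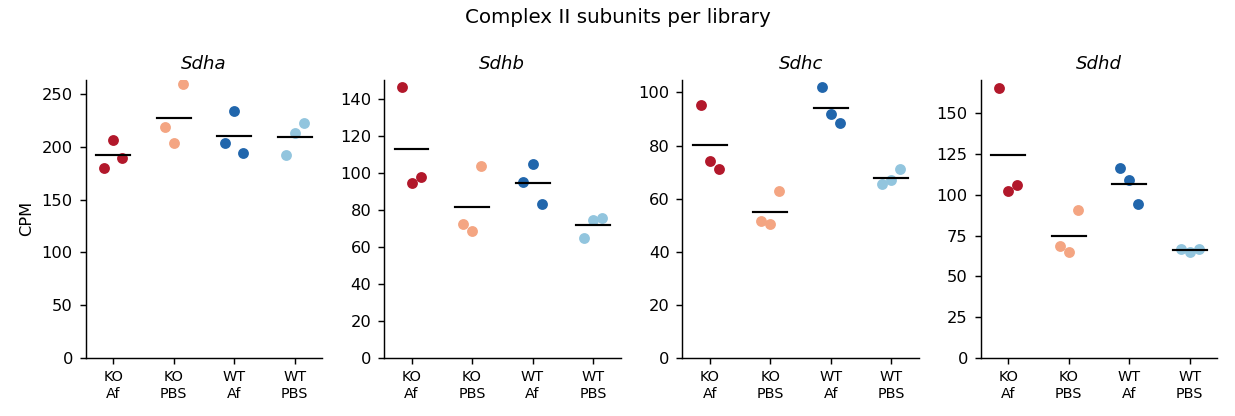
Levels of the complex II genes in CPM (vertical axes from 0) are plotted per library by group, with black lines for group means. Sdhc and Sdhd lie higher in Af than in PBS libraries of each genotype, Sdha does not, and in PBS the 3 KO libraries lie below the 3 WT libraries for Sdhc.

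Cytochrome c and complex III made up 9 members, of which 6 rose in KO lungs and 4 in WT lungs, beside 28.7% and 26.2% of all tested genes. In WT lungs this share was close to the 42.2% of other genes with short transcripts (up to 1500 nt) that rose. Cycs, the mobile carrier between complexes III and IV that also acts in apoptosis, had 204, 130 and 137 CPM in KO_Af, against 69.2, 66.6 and 97.4 CPM in KO_PBS. It had 126, 140 and 116 CPM in WT_Af, against 66.9, 78.7 and 83.7 CPM in WT_PBS. No Af library came down to a PBS library, and the log2 change was 1.0 ± 0.18 SE in KO lungs (adjusted p = 6.60e-04), and the change was 1.67-fold in WT lungs (log2 0.74 ± 0.18 SE, adjusted p = 0.00560). Uqcrq, a small accessory subunit of complex III, rose by 0.92 on the log2 scale in KO lungs and by 0.78 in WT lungs (adjusted p = 0.00361 and 0.0107). Uqcrb, which binds ubiquinone, rose by 0.70 and 0.51 (adjusted p = 0.00660 and 0.0371), and its WT call was lost without WT_Af 19. The Rieske iron-sulphur protein Uqcrfs1 rose in KO lungs (log2 0.52, adjusted p = 0.0355), lost that call without KO_PBS 10 (adjusted p = 0.143) and had a log2 change of 0.46 in WT lungs (adjusted p = 0.0592). The hinge protein Uqcrh and the small subunit Uqcr10 were called in KO lungs (log2 0.59 and 0.68, adjusted p = 0.0387 and 0.0211), and both lost it without KO_PBS 10 (adjusted p = 0.118 and 0.0804). The core proteins changed less: Uqcrc2 had 0.32 and 0.21 (adjusted p = 0.110 and 0.280), and Uqcrc1 had 0.25 in KO lungs (adjusted p = 0.127) and 0.34 in WT lungs (adjusted p = 0.0495, and 0.165 without WT_Af 19).

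Complex IV had the member with the largest rise. Cox5a, a nuclear subunit on the matrix side, had 107, 74.6 and 74.6 CPM in KO_Af, against 35.5, 32.4 and 47.9 CPM in KO_PBS, and 75.0, 76.8 and 64.9 CPM in WT_Af, against 31.0, 33.8 and 39.5 CPM in WT_PBS. The lowest Af library of each genotype lay well above the highest PBS library. The change was 2.19-fold in KO lungs (log2 1.13 ± 0.17 SE, adjusted p = 1.60e-04) and 2.07-fold in WT lungs (adjusted p = 3.72e-04), and it was called in all 12 fits with a library left out in each genotype. Cox5b, its zinc-binding neighbour, rose by 0.93 and 0.88 (adjusted p = 0.00161 and 0.00281). Of the 10 common accessory subunits 9 rose in KO lungs and 8 in WT lungs, beside 28.7% and 26.2% of all tested genes. Their median log2 changes were 0.76 and 0.68. Cox7a2 had 149, 71.7 and 83.6 CPM in KO_Af, against 49.2, 46.7 and 56.8 CPM in KO_PBS, and 80.0, 76.7 and 70.4 CPM in WT_Af, against 45.4, 44.8 and 49.98 CPM in WT_PBS. It was apart in both genotypes and rose by 0.92 and 0.69 (adjusted p = 0.00261 and 0.0152), and Cox7b rose by 0.91 and 0.78 (adjusted p = 0.00389 and 0.0108). Of the common forms with a tissue-restricted partner, Cox8a rose by 0.63 and 0.68 (adjusted p = 0.00422 and 0.00331), Cox6a1 by 0.62 and 0.56 (0.0111 and 0.0205) and Cox6b1 by 0.61 and 0.58 (0.0159 and 0.0235). These 3 were not among the members higher in both genotypes once transcript length was adjusted for (Cox8a log2 0.14 in KO lungs). The calls of Cox6a1 and Cox6b1 in WT lungs were lost without WT_PBS 15 and WT_Af 19 (adjusted p = 0.0715 and 0.0759). Cox6c was called in neither (log2 0.53 and 0.34, adjusted p = 0.0674 and 0.236), although it passed in WT lungs without KO_Af 12 (adjusted p = 0.0308). Ndufa4, once assigned to complex I and now to complex IV, was called in KO lungs (log2 0.63, adjusted p = 0.0480) in 3 of the 12 fits with a library left out (adjusted p = 0.151 without KO_PBS 10) and had 0.50 in WT lungs (adjusted p = 0.114). Cox7a2l, which joins complexes III and IV into supercomplexes and is no catalytic part, had log2 changes of -0.04 and -0.02 (adjusted p = 0.873 and 0.934).

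Among the tissue-restricted complex IV genes, Ndufa4l2 fell while its common partner did not. Ndufa4l2, a hypoxia-responsive relative of Ndufa4 known from pericytes, had 18.7, 12.9 and 10.1 CPM in KO_Af, against 26.6, 26.9 and 30.3 CPM in KO_PBS, and 18.1, 15.0 and 14.2 CPM in WT_Af, against 29.7, 29.1 and 29.6 CPM in WT_PBS. No groups overlapped within a genotype, and the log2 change was -1.02 ± 0.17 SE in KO lungs (adjusted p = 4.24e-04) and -0.89 ± 0.17 SE in WT lungs (adjusted p = 0.00137), a call that held in every alternative run. Per length it stood at 7.42% ± 2.01 of Ndufa4 in KO_Af and 23.5% ± 2.76 in KO_PBS, and at 10.4% ± 0.992 in WT_Af and 27.6% ± 2.56 in WT_PBS (SD, n = 3 each). Cox4i2, the lung and hypoxia form of Cox4i1 and outside the name rule, had 24.8, 19.1 and 17.6 CPM in KO_Af, against 37.1, 33.0 and 41.9 CPM in KO_PBS, and 26.5, 19.6 and 24.5 CPM in WT_Af, against 38.1, 37.7 and 34.1 CPM in WT_PBS, and fell as well (log2 -0.86 and -0.64, adjusted p = 4.00e-04 and 0.00343), while Cox4i1 had log2 changes of 0.65 and 0.53 (adjusted p = 0.0188 and 0.0510). The 7 pericyte markers summed to 192 to 316 CPM in KO_Af against 498 to 516 CPM in KO_PBS, and to 272 to 328 CPM in WT_Af against 457 to 535 CPM in WT_PBS. None was at 0 in all libraries, and 4 of 7 fell in KO and 5 of 7 in WT lungs, beside 29.2% and 25.6% of all tested genes. The part of pericytes in the Ndufa4l2 and Cox4i2 changes was not tested. Ndufa4l2 overlaps Shmt2 on the opposite strand, so that its reads are uncertain if strand was not used in counting.

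Cox6a2, the heart and skeletal muscle form of Cox6a1, had 22.9, 4.78 and 9.37 CPM in KO_Af, against 26.7, 19.0 and 27.6 CPM in KO_PBS, and 16.8, 15.5 and 5.35 CPM in WT_Af, against 19.1, 29.7 and 30.2 CPM in WT_PBS. The groups overlapped in KO lungs through KO_Af 12 and did not in WT lungs, and the change was not called (log2 -1.20 ± 0.50 SE, adjusted p = 0.0571 in KO, -1.16 ± 0.50 SE, adjusted p = 0.0701 in WT). Without KO_Af 12 it was called in both (log2 -1.77, adjusted p = 0.00562 in KO and 0.0254 in WT). The 12 cardiac muscle markers summed to 139 to 649 CPM in KO_Af against 1190 to 1776 CPM in KO_PBS. They summed to 154 to 704 CPM in WT_Af against 1107 to 2057 CPM in WT_PBS, and none was at 0 in all libraries. Of these markers 7 of 12 were lower in KO and 3 of 12 in WT lungs, beside 29.2% and 25.6% of all tested genes. The WT share was thus no higher than over all tested genes. The part of cardiac muscle in the Cox6a2 values was not tested. Cox7a1 and Cox8b, forms of heart, muscle and brown fat, varied most among libraries of a group. Cox8b had 13.0, 0.184 and 1.39 CPM in KO_Af, against 6.43, 4.20 and 16.1 CPM in KO_PBS, and 3.02, 10.9 and 0.711 CPM in WT_Af, against 3.10, 6.38 and 10.6 CPM in WT_PBS. The brown fat gene Ucp1 had 54.6, 0.368 and 0.154 CPM in KO_Af, against 1.17, 0.260 and 96.4 CPM in KO_PBS, and 0.816, 33.0 and 0.449 CPM in WT_Af, against 0.0414, 8.68 and 9.78 CPM in WT_PBS. In each of the 4 groups the library with the most Ucp1 also had the most Cox8b and Cox7a1. The same libraries had the highest cardiac muscle sums of their groups (649, 1776, 704 and 2057 CPM in KO_Af 12, KO_PBS 11, WT_Af 19 and WT_PBS 17). Skeletal muscle sums were highest there too, except in WT_Af (14.8 CPM in WT_Af 18, 14.4 CPM in WT_Af 19). The parts of brown fat, heart and muscle in Cox8b and Cox7a1 were not tested. Neither was called with Af (Cox8b log2 -1.65 and -0.83, adjusted p = 0.183 and 0.514; Cox7a1 log2 -1.09 and -0.98, adjusted p = 0.148 and 0.199). Without KO_Af 12 both were called lower in KO lungs (log2 -2.84, adjusted p = 0.0165 for Cox8b, and log2 -1.82, adjusted p = 0.0117 for Cox7a1). Cox6b2, a form known from testis, had log2 changes of 0.19 and -0.02 (adjusted p = 0.370 and 0.936).

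**Figure D4:**
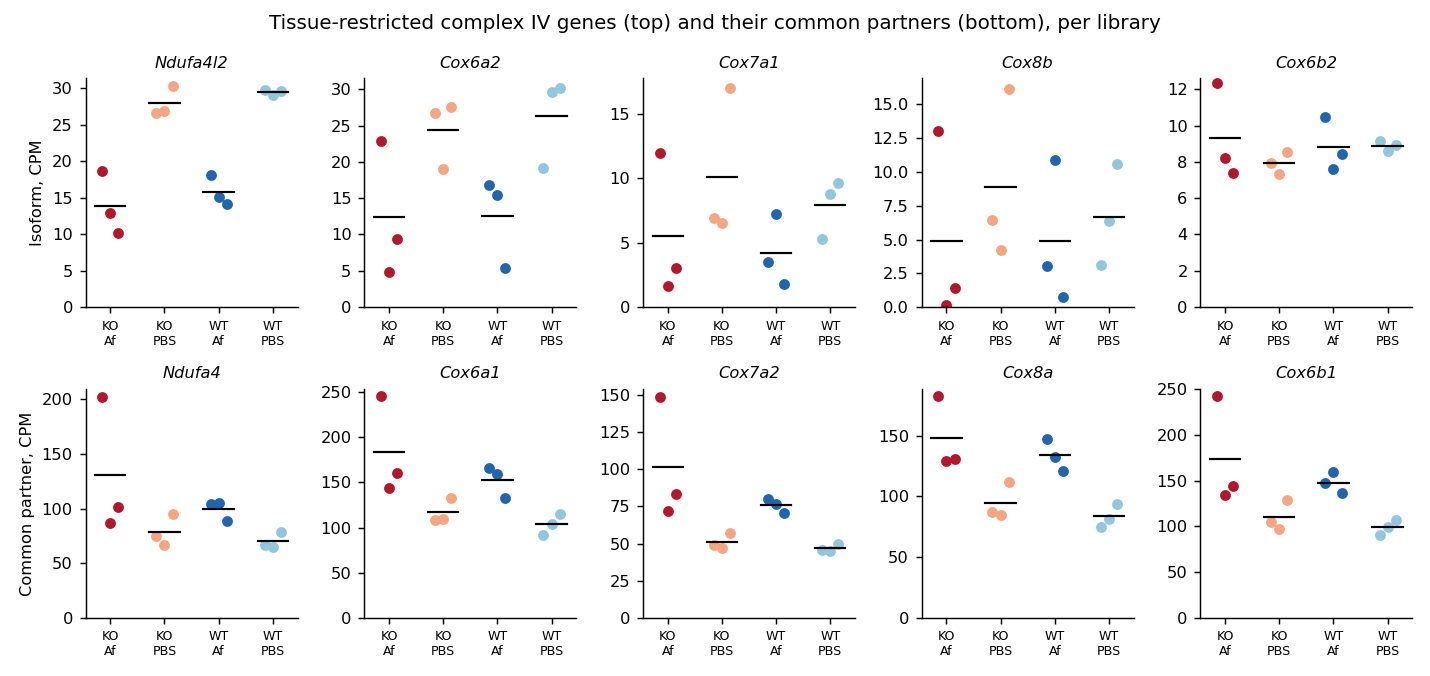
Levels in CPM (vertical axes from 0) are plotted per library by group for the tissue-restricted complex IV genes (top row) and for the common partner of each (bottom row), with black lines for group means. Ndufa4l2 is 10.1 to 18.7 CPM in Af and 26.6 to 30.3 CPM in PBS libraries, while Cox7a1 and Cox8b spread widely within groups and the common partners lie mostly higher with Af.

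ATP synthase genes rose broadly, with 12 of its 15 subunit genes called higher in each genotype. Beside this, 28.7% of all tested genes were higher in KO and 26.2% in WT lungs. Of other genes with short transcripts (up to 1500 nt) 46.8% and 42.2% rose. The median log2 change over all 17 members was 0.74 in KO and 0.61 in WT lungs. The 3 genes Atp5g1, Atp5g2 and Atp5g3 encode the same membrane ring protein, and all rose in both genotypes. Once transcript length was adjusted for, Atp5g1, Atp5d and Atp5k were not among the members higher in both genotypes. The adjusted log2 change of Atp5g1 was 0.303 in KO and 0.205 in WT lungs. Atp5g2 had 194, 135 and 151 CPM in KO_Af, against 94.2, 88.7 and 101 CPM in KO_PBS, and 150, 134 and 138 CPM in WT_Af, against 91.1, 83.5 and 91.9 CPM in WT_PBS. The groups were apart in both genotypes, and log2 changes were 0.74 and 0.66 for Atp5g2, 0.79 and 0.61 for Atp5g3, and 0.80 and 0.62 for Atp5g1 in KO and WT lungs, with adjusted p from 1.75e-04 to 0.00826. Per length, Atp5g3 stood at 66.6% ± 7.23 of Atp5g2 in KO_Af and 63.9% ± 1.63 in KO_PBS, a difference within the SD. Atp5e, the epsilon subunit of the rotor, had 146, 61.2 and 77.8 CPM in KO_Af, against 39.3, 36.2 and 53.5 CPM in KO_PBS, and 71.0, 64.7 and 60.7 CPM in WT_Af, against 38.9, 32.8 and 37.4 CPM in WT_PBS. The groups did not overlap, and it rose 2.08-fold in KO lungs (adjusted p = 0.00391) and by 0.84 on the log2 scale in WT lungs (adjusted p = 0.0156, and 0.0536 without WT_PBS 16). Atp5f1, subunit b of the stalk that holds the head, rose by 0.87 and 0.70, and Atp5l, a small membrane subunit, by 0.83 and 0.79 (adjusted p from 5.07e-04 to 0.00286). Atp5f1 overlaps Wdr77 and is uncertain in the same way as Ndufb6. Atp5k, another small membrane subunit, rose by 0.81 and 0.79 (adjusted p = 0.00822 and 0.0113). The genes of the head and its rotor changed less, apart from Atp5e. Atp5d rose by 0.42 and 0.39 (adjusted p = 0.0213 and 0.0360, and 0.0824 without KO_PBS 10 and 0.133 without WT_Af 18). Atp5b rose by 0.47 and 0.39 (adjusted p = 0.00659 and 0.0209, the second 0.0775 without WT_Af 19), and Atp5a1 had 0.23 in KO lungs (adjusted p = 0.0718) and 0.26 in WT lungs (adjusted p = 0.0469, and 0.140 without WT_Af 19). The factors Atp5s and Atp5sl fell in KO lungs, by 0.47 and 0.50 on the log2 scale (adjusted p = 0.0366, and 0.148 without KO_Af 14, for Atp5s, and 0.00519 for Atp5sl), and had log2 changes of -0.22 and -0.25 in WT lungs (adjusted p = 0.305 and 0.118).

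Changes with Af ran with transcript length across the tested genes, and most members are short. Annotated transcripts of the members were 360 to 3171 nt long, with a median of 763 nt. The 298 other tested genes of up to 700 nt had a median log2 change of 0.55 in KO and 0.44 in WT lungs, and the 2502 of over 5000 nt had -0.34 and -0.29. Among genes of up to 1500 nt, 72.3% of the 65 members rose in KO lungs, with a median of 0.61, against 46.8% of 2459 other genes, with a median of 0.33. In WT lungs 46.2% of these members rose, with a median of 0.48, against 42.2% of the other genes, with a median of 0.29. When the median deviation of non-member genes of like length was taken off in each library, an adjustment chosen after seeing the data, 26 members were higher and 10 lower in KO lungs, and 25 higher and 6 lower in WT lungs. Of all tested genes 29.7% were then higher and 28.9% lower in KO lungs, and 26.4% and 26.3% in WT lungs. The share of members called higher was thus only slightly above that of all tested genes, and the share called lower was below it. The members' median fell to 0.13 in each genotype. The 22 members higher in both genotypes with the adjustment were all among the 36 higher in both without it. They included Cycs (log2 1.07 and 0.77), Atp5f1 (0.65 and 0.52), Cox5a (0.64 and 0.63), Ndufv2 (0.63 and 0.55), Sdhc (0.60 and 0.50) and Sdhd (0.46 and 0.47). The 6 that were lower in both were Ndufa4l2, Cox6a2, Cox7a1, Cox7a2l, Cox6b2 and Atp5sl. Over the 74 common subunits, without tissue-restricted forms and factors, Spearman's rho between change and length was -0.40 in KO and -0.33 in WT lungs, a description over genes that share libraries and depth.

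**Figure D5:**
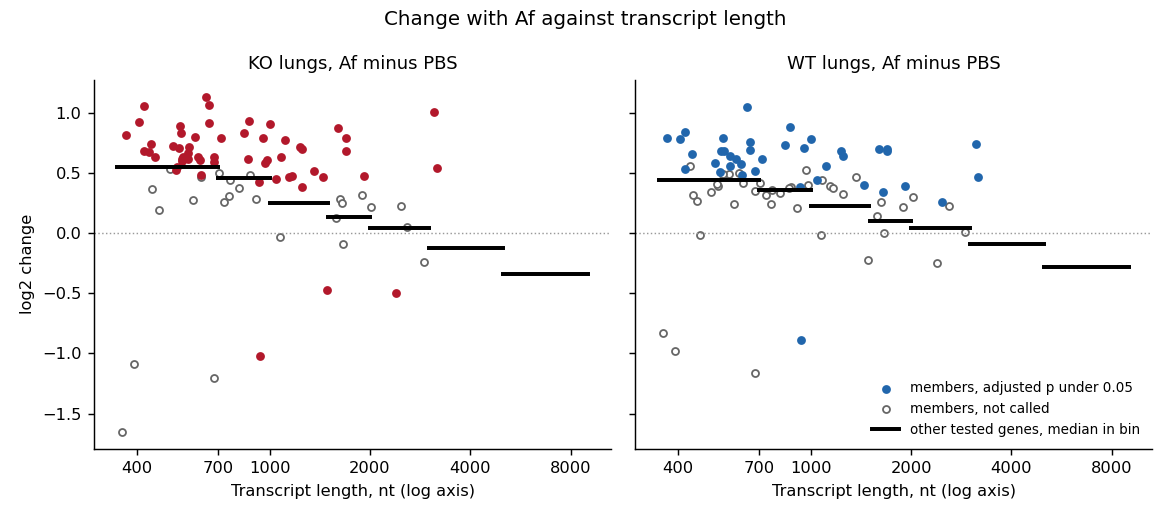
The log2 change with Af (vertical axis) is plotted against annotated transcript length in nt (horizontal log axis) for each member in KO lungs (left) and WT lungs (right), filled where adjusted p was under 0.05. Black bars are medians of the other tested genes in length bins, which run from 0.55 for the shortest to -0.34 for the longest in KO lungs and from 0.44 to -0.29 in WT lungs, and most members lie at or above the bar of their length.

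Loss of Rgs4 was followed by no called change in any member. Between KO and WT lungs 0 of 81 members passed under PBS, where 1.9% of all tested genes were higher and 1.66% lower, and 0 passed under Af (0.0372% and 0.0496%), averaged over exposures (1.04% and 1.12%) or for the interaction of genotype and exposure (0.0062% and 0.0%). At an unadjusted p under 0.05 there were 1, 0, 1 and 0 members by limma, and edgeR and DESeq2 on the recovered reads also called 0 in each. Limma with array weights called 1 under PBS, 2 under Af and 2 on average, all lower in KO (Sdhc, and Ndufa4l2 in the last 2). Most members lay slightly higher in KO than in WT lungs, 74 of 81 under PBS with a median log2 difference of 0.13 and 75 of 81 under Af with a median of 0.22. Over all tested genes the medians were 0.005 and 0.004. The 36 members of up to 700 nt had medians of 0.12 under PBS and 0.23 under Af, and the 298 other genes of that length had 0.11 and 0.23. The members' median under Af was -0.03 without KO_Af 12, and that under PBS was 0.02 without KO_PBS 11. Under PBS all KO libraries lay above all WT libraries for 8 members (Ndufa7, Ndufb4, Ndufb7, Ndufs4, Cox7a2l, Atp5s, Atp5l and Atp5f1) and below for Sdhc and Cox6b2, beside 17.4% and 15.7% of all tested genes. Under Af there were 0 in each direction, beside 7.66% and 6.1%. The standard error of a single member's difference was 0.18 at the median, so differences of that size were not detectable. The member with the smallest p was Sdhc. It had 51.6, 50.2 and 63.0 CPM in KO_PBS, against 65.4, 66.9 and 71.3 CPM in WT_PBS, and 95.1, 74.3 and 71.3 CPM in KO_Af, against 102, 91.8 and 88.3 CPM in WT_Af. The groups were apart under PBS and overlapped under Af, and the log2 difference was -0.31 ± 0.12 SE under PBS (adjusted p = 0.201), -0.24 ± 0.12 SE under Af (adjusted p = 0.472) and -0.27 ± 0.08 SE averaged over both (adjusted p = 0.113, and 0.0244 without KO_Af 12). Relative to the mean of the other complex II genes, log2 Sdhc was -1.09 to -0.76 in the 6 KO libraries and -0.60 to -0.36 in the 6 WT libraries, a description chosen after its values were seen. Sdhc lies on chromosome 1 from 171127165 to 171150603 (GRCm38), 1.38 Mb from Rgs4 at 169741477 to 169747642.

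Of the 13 subunits encoded in mtDNA none was called higher. With Af 3 fell and 0 rose in KO lungs, all of complex I (mt-Nd5, mt-Nd2 and mt-Nd4l), and 1 fell and 0 rose in WT lungs, with medians of -0.32 and -0.19. These shares are below those of all tested genes called lower, 29.2% in KO and 25.6% in WT lungs. The gene that fell in both was mt-Nd5, a proton-pumping complex I subunit, with 1982, 1241 and 1547 CPM in KO_Af, against 2528, 2252 and 2248 CPM in KO_PBS, and 1500, 1515 and 1570 CPM in WT_Af, against 2320, 2391 and 2261 CPM in WT_PBS. Its groups were apart in both genotypes (log2 -0.58 and -0.60, adjusted p = 0.00807 and 0.00777). The largest catalytic subunit of complex IV, mt-Co1, had log2 changes of -0.28 and -0.19 (adjusted p = 0.423 and 0.597). Together these 13 took 4.31%, 2.33% and 2.65% of the library in KO_Af, against 3.79%, 3.34% and 4.62% in KO_PBS, which overlap.

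Genes for building the complexes were read against all tested genes, of which 28.7% were higher and 29.2% lower in KO lungs and 26.2% and 25.6% in WT lungs. Of 78 mitochondrial ribosomal protein genes, which translate the mtDNA-encoded subunits, 71 rose and 0 fell in KO lungs and 61 rose and 0 fell in WT lungs, with medians of 0.64 and 0.46. Mrps18b led them with 46.9, 39.7 and 43.0 CPM in KO_Af, against 15.2, 15.2 and 18.4 CPM in KO_PBS (log2 1.39, adjusted p = 1.17e-06). Of 47 assembly factors 20 rose and 1 fell in KO lungs and 11 rose and 0 fell in WT lungs, and the WT share of risen genes was no higher than over all tested genes. The risen factors included Ndufaf4 for complex I (log2 0.78 and 0.48) and Uqcc2 for complex III (log2 1.12 and 0.82). Cytosolic ribosomal protein genes, also short, rose in 83 and 82 of 86 cases with medians of 0.83 and 0.73. Of 12 genes for nucleotide and phosphate carriers, porins, creatine kinases and the ATP synthase inhibitor, 8 rose and 2 fell in KO lungs and 6 rose and 1 fell in WT lungs. Slc25a5, the ADP/ATP carrier of dividing cells, had 408, 359 and 399 CPM in KO_Af, against 178, 182 and 194 CPM in KO_PBS (log2 1.07, adjusted p = 1.05e-06), and rose by 0.82 in WT lungs, while the heart and muscle form Slc25a4 had log2 changes of -0.03 and -0.24 (adjusted p = 0.891 and 0.273).

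Counts in fuel pathways were mixed. They stand beside 28.7% of all tested genes higher and 29.2% lower in KO lungs, and 26.2% and 25.6% in WT lungs. Of 18 tricarboxylic acid cycle genes 3 rose and 1 fell in KO lungs and 4 rose and 1 fell in WT lungs, with Mdh2 (log2 0.60 and 0.59) and Fh1 (0.61 and 0.56) among the risen and Ogdh (-0.47 and -0.30) the fallen one, and the shares in both directions were below those of all tested genes. Of 18 fatty acid oxidation genes 0 rose and 1 fell in each genotype, Cpt1a, which admits fatty acids to mitochondria (log2 -0.57 and -0.43). Both shares were below those of all tested genes. Of 20 glycolysis genes 10 rose and 4 fell in KO lungs and 11 rose and 3 fell in WT lungs, among them Ldha (log2 1.37 and 0.93), Pgk1 (1.25 and 0.98) and Hk3 (1.57 and 1.90), all with adjusted p under 1e-04. Of 14 genes for mtDNA upkeep and transcription 4 rose and 2 fell in KO lungs and 4 rose and 1 fell in WT lungs. The risen shares were close to those of all tested genes and the fallen shares below them. Among 15 transcriptional regulators of mitochondrial genes 4 rose and 6 fell in KO lungs and 5 rose and 4 fell in WT lungs. The share risen in KO lungs and the share fallen in WT lungs were close to those of all tested genes. Myc had 52.5, 75.6 and 75.5 CPM in KO_Af, against 15.9, 13.4 and 13.1 CPM in KO_PBS, and rose by 2.21 and 1.89 on the log2 scale in KO and WT lungs (adjusted p = 1.52e-06 and 6.95e-06). Hif1a rose (log2 0.88 in WT lungs, adjusted p = 7.92e-04, and adjusted p = 7.88e-05 in KO lungs), and Epas1, a marker of lung endothelium as well as a hypoxia factor, fell (log2 -1.38 and -0.85). Esrrg, a receptor that binds ERR sites, fell by 1.12 and 0.90. Gabpb1, a subunit of the ETS factor GABP, rose by 0.43 and 0.60 (adjusted p = 0.00175 and 2.35e-04), and Nrf1 had log2 changes of 0.06 in KO lungs (adjusted p = 0.454) and 0.33 in WT lungs (adjusted p = 0.00237). No list was tested against other genes.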

How the data were processed

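Poly-A RNA of mouse lung was extracted with a Qiagen kit and made into Illumina TruSeq libraries, per the labels. The submitters' processing notes name cutadapt 1.18, STAR 2.7.6a and RSEM 1.3.0 and the builds GRCm38 and GRCh38 with no role. The deposited table holds a signal, CPM adjusted by TMM factors by the authors. Every value was a whole multiple of 1 read (100% at a tolerance of 0.01), so reads were recovered by division, and a count of 0 allows up to 3 reads (counting error only).

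The 16126 genes that reached 1 CPM in 3 or more libraries were tested on log2(CPM + 0.5), a scale that understates changes of low genes. The test was limma 3.58.1 under R 4.3.3, which fitted the 4 groups together, let the variance follow the mean level and left 8 residual degrees of freedom for the spread. Calls needed a Benjamini-Hochberg adjusted p under 0.05. Af was compared with PBS in KO and in WT lungs, KO with WT in PBS lungs, in Af lungs and on average, and the 2 genotypes' responses with each other. Alternatives were other pseudocounts, filters, scalings and variance models, edgeR 4.0.16 and DESeq2 1.42.0 on recovered reads, fits of the compared groups alone, libraries left out, and 2 added after seeing the data, the adjustment over 20 bins of transcript length and a fit without the libraries with the most Ucp1. The test was tested on simulated data.

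The members and the gene lists were chosen with earlier results of these data known. Given with values are, per complex and comparison, up to 3 called members at each end, the tissue-restricted forms with their partners, all Sdh genes, Cycs and up to 4 genes of the smallest p from each list. Cox6c, Ndufv1, Ndufs1, Uqcrc2, Ndufs8, mt-Co1 and Slc25a4 were named after their values were seen. Transcript length is that of the shortest well-supported principal transcript in GENCODE M21, matched by 99.5% of identifiers. Of the members 35 overlap another annotated gene, 19 of them a tested one, and the sources used here do not say whether counting used strand, so these are uncertain, as are genes with near-identical processed pseudogenes. Nothing says that libraries are from separate animals, so p-values may reflect technical spread only. Replicate pairs differed by at least 11.3 times counting noise, so none was counted once. 1 member is counted but not reported singly here. Figures used matplotlib.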

Additional observations from a re-analysis of the deposited data

How the results depend on the processing

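Leaving out 1 library at a time gave 35 to 66 called members with Af in KO lungs and 24 to 65 in WT lungs, against 56 and 39 with all libraries, and 0 to 1 for KO against WT averaged over exposures (Sdhc, lower, without KO_Af 12). In KO lungs the count was 36 with the adjustment for transcript length and 35 when KO lungs were fitted alone. In WT lungs it was 68 when WT lungs were fitted alone, 72 with array weights, 63 without WT_PBS 17 and KO_Af 12, and 64 without KO_Af 12, KO_PBS 11 and WT_Af 19. Between genotypes, array weights called 1 member under PBS, 2 under Af and 2 on average, all lower in KO (Sdhc, and Ndufa4l2 in the last 2), and the fit without KO_Af 12, KO_PBS 11 and WT_Af 19 called 1 under PBS and 1 on average (Sdhc, log2 -0.41 and -0.40). The causes were not tested. With the length adjustment the log2 change in KO lungs was -0.017 for Ndufb7, against 0.48 without it, and -0.31 for Cox6b2, against 0.19. Other scalings, pseudocounts and filters kept the counts within 1.5 times. Over all alternatives, the values of a set of named members lost a call in 210 cases, gained a call in 89 and changed direction in 2. This tally covers Af against PBS in each genotype, and for Sdhc also KO against WT, and leaves out the other members. The edgeR counts were 57 and 35 and the DESeq2 counts 63 and 42 in KO and WT lungs. No paired analysis was possible because each library number occurs once. With 3 libraries a group, small changes of single members between genotypes were below what could be called.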
